A study of Mus musculus with 16 samples.

Results

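The genes of cell division and DNA replication were followed in the corpus callosum of mice fed cuprizone (CPZ), a copper chelator that kills oligodendrocytes and strips myelin from this white matter tract. The set was a fixed list of 43 genes, 28 of mitosis and 15 of DNA replication, and every array probe matched to one of them was taken. Of these, 41 had at least 1 probe (27 mitosis and 14 replication genes, 56 probes in all), out of 18737 genes and 41153 probes in the processed table. No probe was matched to Prc1 or Rrm2. The samples were 16 single-colour arrays, each of corpus callosum RNA from male C57BL/6 mice that were 7 to 8 weeks old when the experiment began: 3 from untreated mice, matched in age and sex to the mice at 4 weeks of CPZ, 3 after 2 weeks of CPZ in the chow, 4 after 4 weeks, and 6 from mice returned to a regular diet after 4 weeks of CPZ. The CPZ dose was 0.2% by the study's methods and 0.2% to 0.4% by the sample labels. The methods give 2 days and 14 days as the times on regular diet, but the labels do not say which array is which, so the 6 were kept as 1 group. The tissue was cut from frozen coronal sections and so held all cell types of the tract and any neighbouring tissue in the cut, and in such bulk RNA fewer cells of a type and less RNA per cell cannot be told apart.

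Each value below is a log2 level of 1 probe relative to the median of the 3 untreated arrays, so that 0 is the untreated median, 1 is a doubling and -1 a halving, and levels are not comparable between genes. The scanner files and the processed table did not place the arrays in the same samples. Each table column matched exactly 1 scanner file (lowest best correlation 1.0, highest next best 0.888 over 22031 probes), but for 14 of the 16 samples that file was recorded under another sample, and for 13 under a sample of another group. The table columns were followed here. Under the recorded assignment 9 of the 15 gene lists used here, the mitosis and replication genes among them, had a 2-week median of the opposite sign. The 9 genes of myelinating oligodendrocytes had a 2-week median log2 fold change of -3.21 by the table columns, all 9 negative, and of 1.22 as recorded, all 9 positive. Genes that passed the test described below (limma) against untreated numbered 43 and 37 after 2 and 4 weeks by the table columns and 0 and 0 as recorded, with 230 and 598 at an unadjusted p under 0.05 in place of 1949 and 2038. By the table columns, leaving out 1 array of the groups compared gave 1 to 57 and 0 to 143 genes that passed. It gave 1485 to 2165 and 1236 to 3861 at an unadjusted p under 0.05. With the replicate number as a block 0 and 0 passed. The directions given below hold for the table columns, and values under the recorded assignment follow the medians and many of the genes. Between 57.3% and 72.2% of the probes were well above background on an array. The number of arrays limits the precision. On the array, 35 of the 41 genes (22 mitosis, 13 replication) could be tested between the CPZ groups, that is, all arrays of 1 or more groups read their probe well above background. Cdk1, Bub1b, Aurkb, Kif23, Ttk and Cdc6 were too dim, although Cdk1 and Kif23 could be tested once the regular-diet arrays were included.

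A dividing cell runs through 2 programmes in turn. In S phase the MCM helicase, loaded by Cdc6 and Cdt1, opens the DNA, the Pcna clamp holds the polymerase, and Rrm1 and Tyms supply nucleotides. In G2 and M phase cyclin B with Cdk1 drives the entry into mitosis, kinesins and kinetochore proteins move the chromosomes, and Cdc20 and Ube2c direct the destruction of the cyclins. Replication genes are known as targets of E2F factors, whereas mitosis genes are transcribed later, through promoters that often carry a cell cycle homology region (CHR) and CCAAT boxes, bound by the MuvB-based complexes with B-Myb or DREAM proteins and by NF-Y. In adult white matter the dividing cells known best are oligodendrocyte precursors, and in CPZ lesions microglia divide as well.

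The promoters of the members were searched for these letters. RefSeq windows (mouse GRCm38.p6) of 300 bases, from 250 before to 50 after the annotated start, were held for 35 of the 43 genes (24 windows of 23 mitosis genes and 13 of 12 replication genes) and were searched on both strands. The CHR letters TTTGAA or TTCGAA were in 18 of the 24 mitosis windows, in 2 of the 13 replication windows (15.4%) and in 19.2% of all promoters. The E2F letters searched were TTCCCGC, those of TTGGCGC, those of TTCGCGC and those of TTGCCGC, and were in 12.5%, 69.2% and 9.57%, in the same order. CCAAT was common in both lists, in 79.2%, 69.2% and 37.4%, and CHR together with CCAAT in 70.8%, 15.4% and 7.52%. TTCGAA reads the same on both strands and was counted on each, and the E2F letters can overlap each other on opposite strands. On the gene's own strand alone the shares were 58.3%, 15.4% and 11.6% for CHR, 8.33%, 53.8% and 5.09% for E2F, 58.3%, 38.5% and 21.1% for CCAAT, and 41.7%, 7.69% and 2.56% for CHR together with CCAAT. A match of letters describes the window and is no evidence of binding, and no difference between the lists was tested.

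Stretches of 180 bases, from 150 before to 30 after the start, follow on the gene's strand for 3 mitosis genes that carried CHR and CCAAT and 3 replication genes that carried E2F letters, with the matched letters in capitals. Mki67 and Cenpf are shown because they were among the mitosis genes lowest at 2 weeks, Bub1 because the probe tested for it was not, Mcm6 and Mcm5 because they were among the lower replication genes, and Rrm1 because it lay close to the controls. The stretches lay at chr7:135716350-135716529 (minus strand), chr1:189688057-189688236 (minus), chr2:127831830-127832009 (minus), chr1:128359676-128359855 (minus), chr8:75109359-75109538 (plus) and chr7:102441545-102441724 (plus).
Mki67: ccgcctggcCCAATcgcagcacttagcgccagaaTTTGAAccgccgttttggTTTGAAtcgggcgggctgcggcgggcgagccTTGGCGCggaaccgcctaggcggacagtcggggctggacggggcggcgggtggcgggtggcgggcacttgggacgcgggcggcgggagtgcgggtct
Cenpf: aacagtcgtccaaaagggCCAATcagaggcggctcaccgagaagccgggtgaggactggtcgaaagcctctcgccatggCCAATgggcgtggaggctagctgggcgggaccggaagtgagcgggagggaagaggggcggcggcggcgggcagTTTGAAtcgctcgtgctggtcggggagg
Bub1: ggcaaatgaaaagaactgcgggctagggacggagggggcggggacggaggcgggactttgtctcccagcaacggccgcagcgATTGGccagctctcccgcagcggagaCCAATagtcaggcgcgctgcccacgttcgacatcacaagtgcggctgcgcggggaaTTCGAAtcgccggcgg
Mcm6: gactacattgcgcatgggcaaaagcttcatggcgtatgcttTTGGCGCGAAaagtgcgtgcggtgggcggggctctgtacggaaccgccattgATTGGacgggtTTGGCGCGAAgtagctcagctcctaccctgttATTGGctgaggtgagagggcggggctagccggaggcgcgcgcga
Mcm5: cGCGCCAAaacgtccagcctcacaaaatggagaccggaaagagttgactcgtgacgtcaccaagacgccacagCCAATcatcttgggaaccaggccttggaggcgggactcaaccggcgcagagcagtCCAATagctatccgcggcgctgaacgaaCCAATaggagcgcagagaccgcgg
Rrm1: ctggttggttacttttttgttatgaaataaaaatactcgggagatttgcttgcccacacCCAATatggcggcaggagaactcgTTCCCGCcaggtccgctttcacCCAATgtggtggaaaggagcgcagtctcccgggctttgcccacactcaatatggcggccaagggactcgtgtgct

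After 2 weeks of CPZ the mitosis genes were low. Their median log2 fold change against untreated was -1.07 (22 genes, range -2.03 to 0.00), with 21 negative and 1 not below 0, while the median over all 20397 genes tested was 0.05. Of these, 13876 were named and 6521 were accessions that matched no named gene and were counted as a gene each, here and in every share of all genes. The replication genes had a median of -0.19 (13 genes, range -0.59 to 0.13), with 9 negative and 4 positive. None of the 35 passed the test (limma, adjusted p under 0.05 over all probes and at least a 2-fold difference), a call that 0.211% of all genes received. At an unadjusted p under 0.05, 14 of the 22 mitosis genes and 1 of the 13 replication genes, Mcm5, were lower, against 5.03% of all genes. The 3 CPZ arrays lay below all 3 untreated arrays for 15 of the 22 mitosis genes and for 1 of the 13 replication genes, again Mcm5, and for 8.6% of all genes. Over the named genes alone 10.3% lay below every untreated array. Of the mitosis genes in these counts, Top2a and Melk were well above background on 2 of the 3 arrays at 2 weeks, and Nusap1, Kif11 and Ccnb1 on 1. They were admitted to the test by the untreated and 4-week arrays, on which they read higher on average, and are part of the median and both counts. With the scanner files placed as recorded, the mitosis median was 0.56 (25 tested) and the replication median 0.05, and no member lay below all untreated arrays, as 2.64% of all genes did, while Cenpe, Kif23, Mki67 and Mcm3 lay above them all, as 1.99% of all genes did. Under that assignment the log2 fold changes were 1.09 for Mki67, 1.03 for Melk, 0.94 for Ccnb1, 0.76 for Nusap1, 0.73 for Top2a, 0.72 for Cenpf, 0.66 for Ccna2, 0.63 for Kif11 and 0.59 for Ube2c, each of the opposite sign to the values below, and 0 members had an unadjusted p under 0.05, as 1.16% of all genes did. With normexp background correction the mitosis median was -0.53, beside -0.07 over all genes. With the slide as a random block Ccna2 and Foxm1 passed the test, as did 256 of all 20397 genes in place of 43, and with the slide as a fixed block no member did.

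The difference was seen on each array. The median over the 22 mitosis genes was 0.16, 0.00 and -0.23 on the untreated arrays and -0.63, -1.35 and -0.98 on the 2-week arrays. For the 13 replication genes it was 0.28, 0.00 and -0.11, then 0.12, -0.51 and -0.03. The groups did not overlap for the mitosis median and did for the replication median. The 2-week arrays had 15, 19 and 20 of the 22 mitosis genes, and 2, 11 and 5 of the 13 replication genes, below every untreated array, where 29.6%, 23.6% and 22.3% of all genes were below on the same arrays. Replicate 2 was the array on which most replication genes were low. On the 1 slide that held both groups (2 arrays at 2 weeks, 1 untreated), the median difference was -1.04 for mitosis, with 20 of 22 lower, and -0.16 for replication, with 11 of 13 lower.

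**Figure D1:**
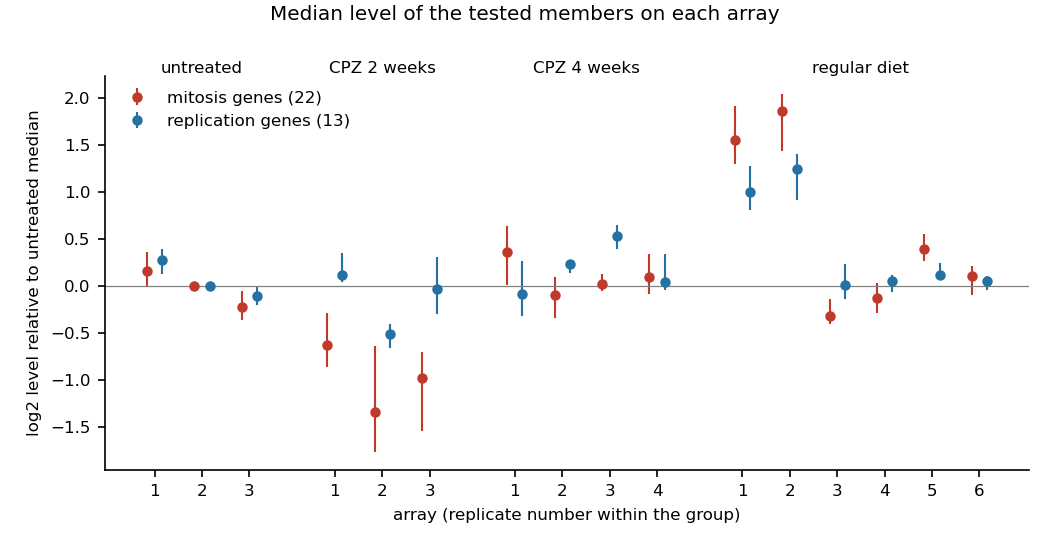
Median log2 level, relative to the untreated median, over the 22 mitosis and the 13 replication genes tested on the CPZ and untreated arrays, for each of the 16 arrays (points), with the quartiles over genes as bars. The 3 arrays at 2 weeks had mitosis medians between -1.35 and -0.63, below every untreated array, and regular-diet replicates 1 and 2 had the highest medians of both lists.

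Mki67 encodes Ki-67, the protein that coats mitotic chromosomes and marks cycling cells. It stood at -0.45, 0.54 and 0.00 on the untreated arrays, at -0.77, -2.09 and -1.63 at 2 weeks, at 0.67, 0.10, 0.03 and 0.52 at 4 weeks, and between -0.15 and 2.53 (median 0.52) on regular diet. All 3 arrays at 2 weeks were below all others, with a log2 fold change of -1.53 (SE 0.38, adjusted p = 0.143, 2.88-fold lower). Top2a, the topoisomerase that untangles chromosomes, had 0.00, 0.04 and -0.46, then -1.03, -3.61 and -1.87 at 2 weeks, 1.31, -0.37, -0.05 and 0.78 at 4 weeks, and -0.58 to 2.07 (median 0.06) on regular diet. Its log2 fold change at 2 weeks was -2.03 (SE 0.64, adjusted p = 0.261), or -1.31 without replicate 2 of the 2-week group, and 1 of the 3 arrays was no longer well above background. Its second probe gave -2.41, and that of Mki67 -1.39.

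Of the spindle and kinetochore genes some lay below every untreated array at 2 weeks and some overlapped, and differences between genes were not tested. Cenpf, a kinetochore protein of late G2, stood at 0.10, 0.00 and -0.40, then at -0.95, -2.56 and -2.16 at 2 weeks, -0.06, -0.62, -0.42 and -0.32 at 4 weeks, and -0.52 to 1.46 (median 0.17) on regular diet. The 2-week arrays were the lowest 3 of the 16, and the log2 fold change was -1.79 (SE 0.38, adjusted p = 0.0959, 3.46-fold lower). Nusap1, which binds spindle microtubules, had 0.39, 0.00 and -0.52, then -0.64, -2.98 and -1.96, then 0.55, 0.03, 0.02 and 0.41, and -0.39 to 2.31 (median 0.30) on regular diet, with a 2-week log2 fold change of -1.81 (SE 0.52, adjusted p = 0.201), or -1.25 without replicate 2 of the 2-week group. The kinesin Kif11, which pushes the spindle poles apart, had 0.08, 0.00 and -0.29, then -0.58, -1.80 and -1.56, then -0.01, -0.80, 0.59 and -0.01, and -0.75 to 1.44 (median 0.15), with -1.24 (SE 0.40, adjusted p = 0.266). For Nusap1 and Kif11, 1 of the 3 arrays at 2 weeks was well above background. Cenpf, Nusap1 and Kif11 all lay below every untreated array at 2 weeks.

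Of the 4 subunits of the complex that ties kinetochores to microtubules, 3 overlapped between the groups, the members Nuf2 and Ndc80 and the further gene Spc25. Nuf2 had 0.58, 0.00 and -0.62, then 0.12, -1.52 and -0.93 at 2 weeks, -1.60, 0.14, 0.58 and -0.43 at 4 weeks, and -0.41 to 0.45 (median 0.37) on regular diet, and its groups overlapped (log2 fold change -0.77, SE 0.61). Ndc80 had -2.08, 0.00 and 0.03, then -0.87, -0.56 and -0.83, then 1.78, -1.86, -2.16 and 0.28, and -0.27 to 0.73 (median -0.19), with -0.07 (SE 1.00). Its spread within the untreated and the 4-week arrays was wider than any difference between the group means. The others are not members and were named after their values were seen. Spc25 read 0.45, -0.01 and 0.00 untreated and 0.15, -1.42 and 0.15 at 2 weeks (log2 fold change -0.52, SE 0.48). Spc24 read 0.45, 0.00 and -0.62 untreated, -0.84, -1.15 and -1.38 at 2 weeks and -0.59, 0.19, 0.21 and -0.16 at 4 weeks, and so lay below every untreated array at 2 weeks. Bub1, a checkpoint kinase, had 0.35, 0.00 and -0.25, then -0.20, 0.26 and 0.04, then 0.48, 0.39, 0.01 and 0.10, and -0.30 to 0.02 (median -0.17), with a log2 fold change at 2 weeks of 0.00 (SE 0.23). Its second, dimmer probe, not tested on these arrays, read -1.07, -2.49 and -2.50 at 2 weeks and 3.04 and 2.99 on regular-diet replicates 1 and 2, so that the probes of Bub1 disagreed.

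Among the cyclins and mitotic kinases, too, some lay below every untreated array at 2 weeks and some overlapped, again with no test between genes. Ccna2, the cyclin of S and G2 phase, had 0.21, 0.00 and -0.26, then -1.0, -1.58 and -1.14 at 2 weeks, 0.37, -0.20, -0.07 and -0.11 at 4 weeks, and -0.43 to 1.97 (median 0.38) on regular diet. Its arrays at 2 weeks lay close together and below all others, and its log2 fold change of -1.23 (SE 0.24) had the lowest adjusted p of the set, 0.0782. Ccnb1, a cyclin of mitosis, had 0.00, 0.36 and -0.21, then -0.72, -0.41 and -2.50, then -0.26, -0.03, -0.07 and 0.35, and -0.43 to 1.66 (median 0.36), with -1.26 (SE 0.48, adjusted p = 0.407) and 1 of 3 arrays at 2 weeks well above background. The size of this fold change rested largely on replicate 3 of the 2-week group. The other cyclin B gene, Ccnb2, had -0.13. Plk1, the kinase that triggers mitotic entry, had 0.00, 0.00 and 0.03, then 0.36, -0.20 and -0.20, then 0.07, -0.50, -0.23 and -0.13, and -0.35 to 1.93 (median 0.22), with -0.02 (SE 0.22). Melk, a kinase of dividing progenitors, had 0.56, 0.00 and -0.16, then -1.97, -0.86 and -1.53, then 0.71, 0.40, 0.13 and 0.18, and -0.49 to 1.86 (median 0.36), with -1.59 (SE 0.32, adjusted p = 0.0879, 3.01-fold lower) and 2 of 3 arrays at 2 weeks well above background. Plk1 thus overlapped between the groups and Melk did not.

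Ube2c, the ubiquitin-conjugating enzyme of the anaphase-promoting complex, had 0.62, 0.00 and -0.06, then -0.62, -1.86 and -0.97 at 2 weeks, 0.34, 0.39, 0.52 and 0.58 at 4 weeks, and -0.10 to 2.45 (median 0.37) on regular diet, with a log2 fold change at 2 weeks of -1.33 (SE 0.32, adjusted p = 0.134). Of the remaining mitosis genes, Kif20a (-1.14), Foxm1 (-1.11), Cenpe (-1.04), Birc5 (-0.99) and Cdc20 (-0.96) lay below every untreated array, as did Cenpa (-0.38), and these complete the 15 genes counted above, named after their values were seen. Foxm1, a transcription factor of mitosis genes, had an adjusted p of 0.0879. Aurkb, the chromosomal passenger kinase, was not well above background on any untreated or 2-week array, and no fold between those groups is given.

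The tested replication genes of the set lay nearer to the controls than its mitosis genes. E2f1, the transcription factor of S-phase genes, had 0.00, -0.10 and 0.34, then -1.22, 0.03 and -0.34 at 2 weeks, 0.35, 0.28, 0.38 and 0.24 at 4 weeks, and -0.32 to 0.89 (median -0.15) on regular diet, with a log2 fold change at 2 weeks of -0.59 (SE 0.30, adjusted p = 0.639), or -0.24 without replicate 1 of the 2-week group. Mcm5, a helicase subunit, had 0.18, -0.10 and 0.00, then -0.46, -0.41 and -0.65, then -0.52, 0.09, 0.21 and -0.02, and -0.35 to 1.40 (median 0.10), with -0.53 (SE 0.22, adjusted p = 0.472). The 3 arrays of Mcm5 at 2 weeks lay below the untreated arrays, but 1 array at 4 weeks did too.

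The other helicase subunits rested on replicate 2 of the 2-week group. Mcm6 had 0.28, 0.00 and -0.10, then 0.24, -1.28 and -0.38, then 0.26, 0.15, 0.40 and 0.04, and -0.09 to 1.25 (median 0.06). Mcm3 had 0.00, 0.03 and -0.32, then 0.00, -1.53 and -0.21, then -0.35, 0.16, 0.78 and -0.24, and -0.01 to 2.21 (median 0.19). Mcm2 had 0.33, 0.00 and -0.03, then 0.09, -1.12 and 0.31, then -0.32, 0.14, 0.65 and 0.34, and 0.04 to 1.40 (median 0.21). In each, replicate 2 was the lowest of the 16 arrays and the other arrays at 2 weeks lay among or near the untreated ones, with log2 fold changes of -0.53 (SE 0.34), -0.48 (SE 0.43) and -0.34 (SE 0.39). Without that replicate the fold changes were -0.13, 0.00 and 0.10 and the median over the 13 replication genes was 0.00. Mcm4 had 0.46, 0.00 and -0.20, then 0.52, -0.48 and 0.35, then -0.17, 0.25, 0.65 and -0.04, and 0.05 to 0.71 (median 0.12). Mcm7 had 0.39, 0.00 and -0.21, then 0.66, -0.52 and 0.43, then -0.09, -0.20, 0.58 and -0.28, and -0.23 to 0.81 (median 0.01). These last subunits had fold changes of 0.04 (SE 0.33) and 0.13 (SE 0.35), and their groups overlapped.

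Among the members, the clamp gene Pcna and the nucleotide genes Rrm1 and Tyms stood close to 0 at 2 weeks, unlike the further nucleotide gene Tk1, given below. Pcna, the sliding clamp, had 0.60, -0.01 and 0.00, then 0.54, -0.15 and 0.35, then -0.28, 0.38, 0.67 and -0.03, and 0.01 to 0.92 (median 0.19), with a log2 fold change of 0.05 (SE 0.31). Rrm1, the large subunit of ribonucleotide reductase, had 0.31, 0.00 and -0.26, then 0.04, -0.51 and -0.03, then -0.50, 0.04, 0.43 and -0.11, and -0.27 to 0.96 (median 0.06), with -0.19. Tyms, which makes thymidylate, had 0.25, -0.17 and 0.00, then 0.35, -0.66 and 0.04, then 0.97, 0.36, 0.53 and 0.44, and 0.01 to 2.45 (median 0.49), with -0.12. In each the 2-week and untreated arrays overlapped.

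Of the licensing and G1/S genes, Cdt1, which loads the helicase, had 0.13, 0.00 and -0.20, then 0.12, -0.44 and -0.30, then 0.06, 0.23, 0.39 and 0.06, and -0.07 to 1.99 (median 0.25). Gins2, a subunit of the active helicase, had 0.46, 0.00 and -0.14, then 0.05, -0.56 and 0.18, then 0.14, 0.42, 0.57 and 0.45, and -0.25 to 1.36 (median 0.21). Ccne2, a cyclin E, had 0.00, 0.40 and -0.11, then 0.30, 0.46 and -0.14, then 1.05, 0.28, -0.33 and 0.94, and 0.26 to 1.28 (median 0.59). The 2-week fold changes were -0.18, -0.21 and 0.11, and the 2-week and untreated arrays overlapped in each. Cdc6, the other loader, was too dim to test on either set of arrays.

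**Figure D2:**
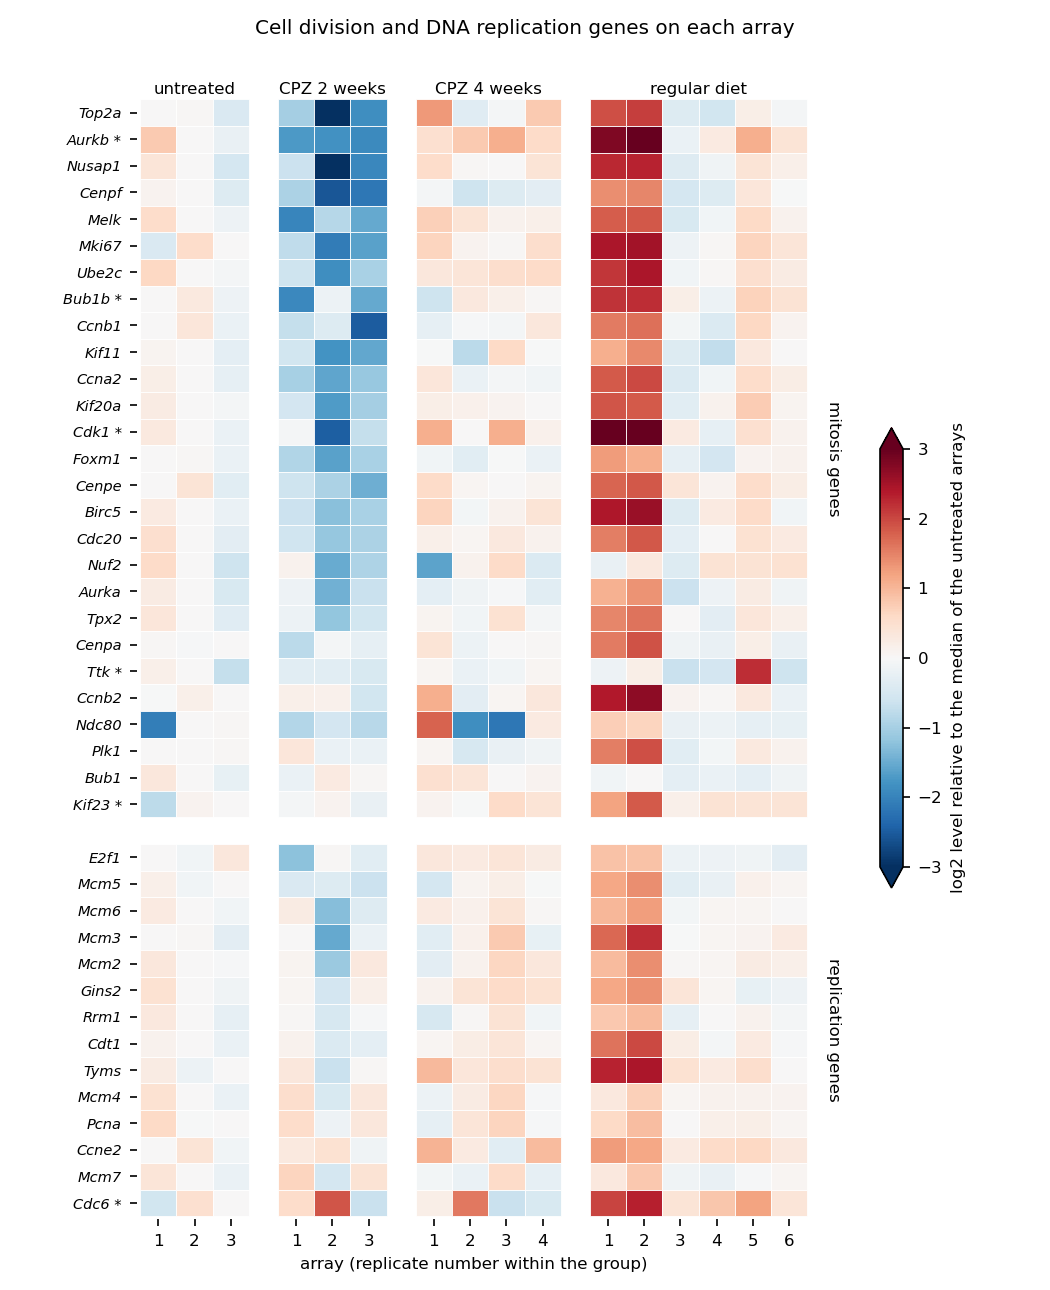
Log2 level, relative to the untreated median, of the 41 genes with a probe (rows, mitosis above replication) on the 16 arrays (columns, by group), with colour limited to -3 and 3. An asterisk marks a gene whose probe was too dim to be tested on the CPZ and untreated arrays. The 2-week columns are low over most mitosis rows, from -0.77 to -2.09 for Mki67, and regular-diet replicates 1 and 2 are high over rows of both lists.

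After 4 weeks of CPZ the levels lay near those of untreated mice. The median log2 fold change was 0.10 for mitosis (16 positive, 6 negative) and 0.15 for replication (9 positive, 4 negative), beside -0.04 over all genes. None of the 35 passed the test, which 0.181% of all genes did, and 0 had an unadjusted p under 0.05, as 9.99% of all genes did. The lowest adjusted p was 0.832 for mitosis and 0.561 for replication. Only Tyms lay above every untreated array, as did 5.3% of all genes, with a log2 fold change of 0.55 (SE 0.27). The largest mitosis values were 0.56 (SE 0.60) for Top2a, -0.32 (SE 0.57) for Nuf2, 0.30 for Mki67 (SE 0.35) and Nusap1 (SE 0.48), and 0.27 (SE 0.30) for Ube2c. The second probes of Top2a and Mki67 gave -0.03 and 0.78, so these values turned on the probe. The smallest were 0.01 for Kif11, 0.02 for Ccna2 and -0.06 for Ccnb1. Among replication genes Ccne2 had 0.39 (SE 0.34), Gins2 0.29 (SE 0.24), E2f1 0.23 (SE 0.28) and Cdt1 0.21 (SE 0.19), and Pcna, Rrm1 and Mcm7 had -0.01, -0.05 and -0.06. Each of these differences but that of Tyms was smaller than 2 standard errors.

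The 4-week arrays varied. Replicate 1 had 12 of the 22 mitosis genes above every untreated array, where 31.1% of all genes were, and a replication median of -0.09. Replicate 3 had 12 of the 13 replication genes above every untreated array, where 25.5% of all genes were, and a mitosis median of 0.02. The mitosis median fold change was 0.03 without replicate 1 and -0.02 without untreated replicate 3, and the replication median was -0.04 without replicate 3 of the 4-week group and 0.07 without untreated replicate 3. Within the slides that held 1 array of each group, the median differences between 4 weeks and untreated were -0.01 and 0.47 for mitosis and 0.57 and 0.03 for replication. Under the recorded assignment the medians at 4 weeks were 1.05 for mitosis and 0.26 for replication, and Kif23, Mki67 and Ndc80 lay above every untreated array, as 1.46% of all genes did.

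Set against 2 weeks, the 4-week arrays were high in mitosis genes. The median log2 fold change was 1.20 for mitosis, with 21 positive and 1 negative, and 0.44 for replication, with 11 positive and 2 negative, beside -0.02 over all genes. None of the 35 passed the test, as 0.0147% of all genes did. At an unadjusted p under 0.05, 15 mitosis genes and 2 replication genes, E2f1 and Tyms, were higher, against 4.89% of all genes. The 4 arrays at 4 weeks lay above the 3 at 2 weeks for 14 mitosis and 2 replication genes, against 5.79% of all genes. Melk had the lowest adjusted p (log2 fold change 1.81, SE 0.30, adjusted p = 0.125, 3.5-fold higher). Top2a had 2.59 (SE 0.60, adjusted p = 0.284), Nusap1 2.11 (SE 0.48), Mki67 1.83 (SE 0.35, adjusted p = 0.201), Ube2c 1.60 (SE 0.30), Cenpf 1.53 (SE 0.36) and Ccna2 1.24 (SE 0.22, adjusted p = 0.152), whereas Plk1 had -0.18. Of the mitosis genes counted as higher at this p, Melk and Top2a were well above background on 2 of the 3 arrays at 2 weeks, and Nusap1, Kif11 and Ccnb1 on 1. E2f1 had 0.83 (SE 0.28, adjusted p = 0.416) and Tyms 0.66 (SE 0.27). Leaving out 1 array moved E2f1 between 0.47 and 1.10 and Tyms between 0.38 and 0.88. This comparison shares its 2-week arrays with the first, so that a low array at 2 weeks enters both. On the 1 slide with both groups the median difference was 1.29 for mitosis, with 17 of 22 higher, and 0.58 for replication, with 13 of 13 higher, and the only 2-week array on that slide was replicate 2, which carried the low replication values. With normexp the mitosis median was 0.38, beside 0.02 over all genes, and without replicate 2 of the 2-week group the replication median was 0.28. The recorded assignment gave medians of 0.52 and 0.13, and no member lay above all arrays at 2 weeks, as 1.52% of all genes did, and none had an unadjusted p under 0.05, as 2.49% of all genes did.

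**Figure D3:**
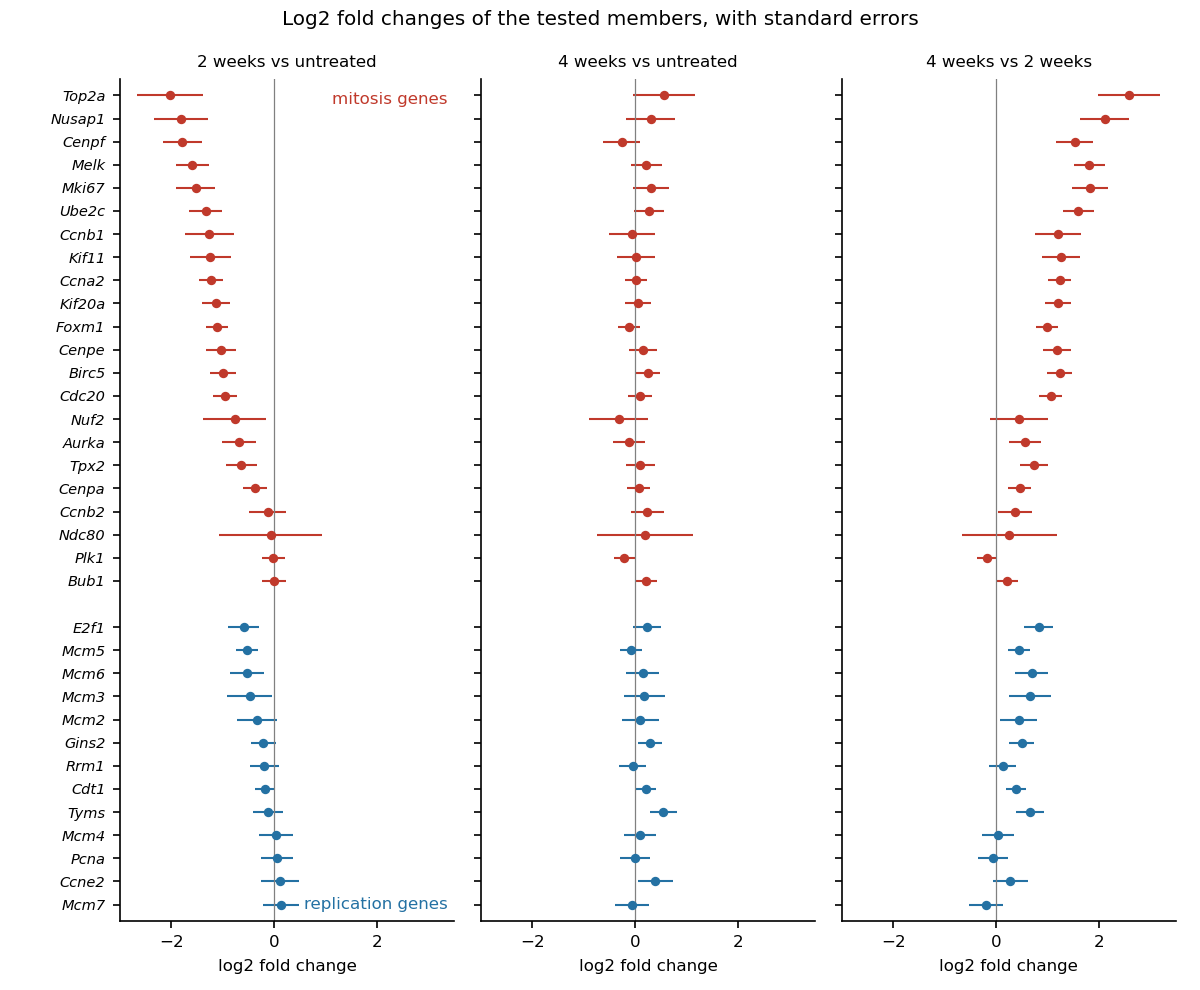
Log2 fold change (points) with its standard error from limma (bars) for the 35 tested genes in the 3 comparisons of the CPZ and untreated groups, mitosis and replication genes in separate colours. At 2 weeks the mitosis genes lay between -2.03 and 0.00 and the replication genes between -0.59 and 0.13, and at 4 weeks against untreated only Top2a and Tyms exceeded 0.5 in size.

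The lists overlapped at 2 weeks. Plk1, Bub1, Ndc80, Ccnb2 and Cenpa, all mitosis genes, had log2 fold changes between -0.38 and 0.00, inside the range of the replication genes (-0.59 to 0.13), though the second probe of Bub1 was low at 2 weeks, as given above. Of the promoters described above, the 12 tested mitosis genes with CHR letters had a 2-week median of -0.82 in log2 fold change, and the 6 without them (Birc5, Ccnb1, Cenpe, Melk, Nuf2 and Nusap1) had -1.15. The 6 tested replication genes with E2F letters had -0.34 and the 4 without them -0.23. Neither difference was tested, and 4 tested mitosis genes (Ccna2, Foxm1, Kif20a and Tpx2) had no window.

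On regular diet the 6 arrays were spread widely. The median over the mitosis genes was 1.55 and 1.86 on replicates 1 and 2 and -0.32, -0.13, 0.39 and 0.11 on the other 4. Over the replication genes it was 1.00 and 1.25, then 0.01, 0.05, 0.12 and 0.05. Replicates 1 and 2 had 20 of the 22 mitosis genes each, and 10 and 13 of the 13 replication genes, above every untreated array, where 23.3% and 24.7% of all genes were. Replicate 5 had 16 mitosis genes above every untreated array (15.1% of all genes) and replicate 3 had 12 below (21.8% of all genes). The median of the 9 myelin genes was -3.50, -3.25 and -2.92 on replicates 1 to 3 and -0.02, -0.13 and 0.52 on replicates 4 to 6, so that it was low on both arrays with high mitosis medians and on replicate 3, whose mitosis median was the lowest of the 6, and its part in the result was not tested. The labels give no ground to split these arrays, and no test was made between them.

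As 1 group, regular diet against untreated had a median log2 fold change of 0.57 over the 22 mitosis genes that were also tested between the CPZ groups (21 positive) and 0.32 over the 13 replication genes (13 positive), beside -0.01 over all genes. With Cdk1 and Kif23 the mitosis median was 0.62 (24 tested). None of the 37 passed the test, which 0.864% of all genes did. Kif23 and Cdk1 entered this test only because their probes were well above background on all 6 regular-diet arrays, against 1 of 3 untreated arrays each, so their values are given as a description. Kif23, the kinesin of the midbody, read 1.20, 1.85, 0.18, 0.44, 0.40 and 0.40 on regular diet and -0.78, 0.11 and 0.00 untreated, and Cdk1, the mitotic kinase, ran from -0.26 to 3.19 on regular diet and from -0.19 to 0.29 untreated. The second probes of both were too dim to be tested. That of Cdk1 read 0.83 and -0.15 on replicates 1 and 2, where the first read 2.98 and 3.19. That of Kif23 overlapped, with 0.05 on regular-diet replicate 3 and 0.07 on untreated replicate 3. None of the other 35 was above every untreated array, as 5.08% of all genes were, and none had an unadjusted p under 0.05, as 10.5% of all genes did. Mki67 had 0.95 (SE 0.57, adjusted p = 0.55), Tyms 0.98 (SE 0.49, adjusted p = 0.498) and Mcm3 0.83. Over all 24 and 13 genes tested, the medians against untreated were 0.39 and 0.18 without replicate 1, and without replicate 2 they were 0.35 and 0.13. With another background correction (normexp) the mitosis median was 0.06, beside -0.16 over all genes, and the recorded assignment gave 0.62 for mitosis and 0.03 for replication. Against 4 weeks the medians were 0.51 and 0.21, none of the 37 passed the test, which 0.00485% of all genes did, and the groups overlapped for every member, while 4.98% of all genes lay above. Bub1 alone had an unadjusted p under 0.05 (log2 fold change -0.42, SE 0.15, adjusted p = 0.131), as 26.6% of all genes did. Its second probe gave 0.58, the opposite direction. The recorded assignment gave medians against 4 weeks of -0.48 and -0.22. Leaving out regular-diet replicate 1 or 2 gave 0.30 and 0.27 for mitosis and 0.10 and 0.09 for replication. Within the slides, regular diet less untreated had mitosis medians of -0.41, 0.90 and 1.30 and replication medians of -0.29, 0.60 and 0.63, and the slide that ran the other way held neither replicate 1 nor replicate 2. Regular diet less 4 weeks gave mitosis medians of 0.91, 0.82 and -0.28, and the slide of the last held neither of them as well.

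The rest of the cell cycle was read from longer lists of the same kind. Of 57 further mitosis genes, 37 were tested at 2 weeks, with a median log2 fold change of -0.52. Among them 14 lay below and 1 above every untreated array (8.6% and 8.2% of all genes). At an unadjusted p under 0.05, 15 were lower and 1 higher (5.03% and 4.53% of all genes), and 1 passed the test (0.211% of all genes). The gene that passed was Shcbp1, which works with centralspindlin in late cell division. It read 0.37, 0.00 and -0.15 untreated, fell to -1.39, -1.31 and -1.57 at 2 weeks (log2 fold change -1.50, SE 0.21, adjusted p = 0.0375), and stood at 0.15, 0.17, -0.32 and -0.01 at 4 weeks. Shcbp1 passed in 10 of 25 alternatives, and not with any 1 of the 6 untreated and 2-week arrays left out (adjusted p 0.0559 to 0.165 in limma), the replicate block (0.241), the slide as a fixed block (0.0598), a fit of only the 2 groups (0.111) or normexp (log2 fold change -0.57, adjusted p = 0.248). Under the recorded assignment its log2 fold change was 0.72. Anln, a scaffold of the cleavage furrow that myelinating oligodendrocytes also make, had -3.50 (SE 0.63, adjusted p = 0.0695) and remained low at 4 weeks, at -3.18, unlike the members described above. Pbk, a mitotic kinase, had -2.25 (SE 0.66, adjusted p = 0.22). At the other end Pttg1, the securin, had 0.24 (SE 0.67). Under the recorded assignment the median of these further mitosis genes was 0.26, and Anln, Pbk and Pttg1 had 0.65, 0.52 and -2.08. Gtse1, a microtubule-binding protein that also restrains p53, read 3.04, 1.35 and 2.81 at 2 weeks and was not well above background on any untreated array, so that it was at least 3.67-fold higher. It entered the test only through the 2-week group. The bound sets the 2-week mean against, on each untreated array, the probe's signal or the lowest signal counted as above background, whichever was higher.

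Of 47 further replication and repair genes 35 were tested at 2 weeks, with a median of -0.40 and 9 lower at an unadjusted p under 0.05, against 5.03% of all genes. Below every untreated array lay 11 of them, against 8.6% of all genes. The medians of the longer lists (-0.52 for mitosis, -0.40 for replication) lay closer together than those of the members (-1.07 and -0.19). The nuclease Exo1 had -1.82 (SE 0.28, adjusted p = 0.0548) and the thymidine kinase Tk1 -1.38 (SE 0.32, adjusted p = 0.124), and the highest were Hells at 0.61 and Cdc7 at 0.54. With the files as recorded the median was 0.06, and Exo1 and Tk1 had 0.84 and 0.83. The 13 tested G1 cyclins, kinases and their partners had a median of 0.11. Myc, a growth factor-induced transcription factor, read 2.74, 1.02 and 1.81 at 2 weeks against 0.25, 0.00 and -0.28 (1.87, SE 0.43, adjusted p = 0.124), and Rbl1 had 0.57, while Rbl2 and Mycn had -0.36 and -0.34. None of these passed the test. The G1 list had a median of -0.05 under the recorded assignment, and Myc had -0.66.

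Of the inhibitors of the cycle 15 were tested, with a 2-week median of 0.28, 10 positive and 5 negative, with 5 above all untreated arrays, against 8.2% of all genes: Cdkn1a, Gadd45a, Gadd45b, Ccng1 and Wee1. The last 3 are named because the count was small, after their values were seen, and had 1.14, 1.36 and 0.77. Cdkn1a, which encodes the p53-induced inhibitor p21, read 0.00, 0.94 and 0.00 untreated, 4.16, 2.83 and 4.01 at 2 weeks, 1.74, 1.01, 3.81 and 1.54 at 4 weeks, and 2.05, 2.72, 2.44, -0.18, -0.31 and -0.42 on regular diet. All arrays at 2 and 4 weeks lay above all untreated arrays, with log2 fold changes of 3.36 (SE 0.68, adjusted p = 0.0895) and 1.71 (SE 0.64, adjusted p = 0.374), neither of which passed the test, and under the recorded assignment they were -1.66 and -1.89. Gadd45a, a stress-induced growth arrest gene, had 1.47 (SE 0.48, adjusted p = 0.281), and -0.64 under the recorded assignment. Cdkn1b, the p27 inhibitor, and Cdkn1c, the p57 inhibitor, had 0.28 (SE 0.27) and -0.14 (SE 0.55), and Cdkn2c and Trp53 had -0.40 and -0.38.

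**Figure D4:**
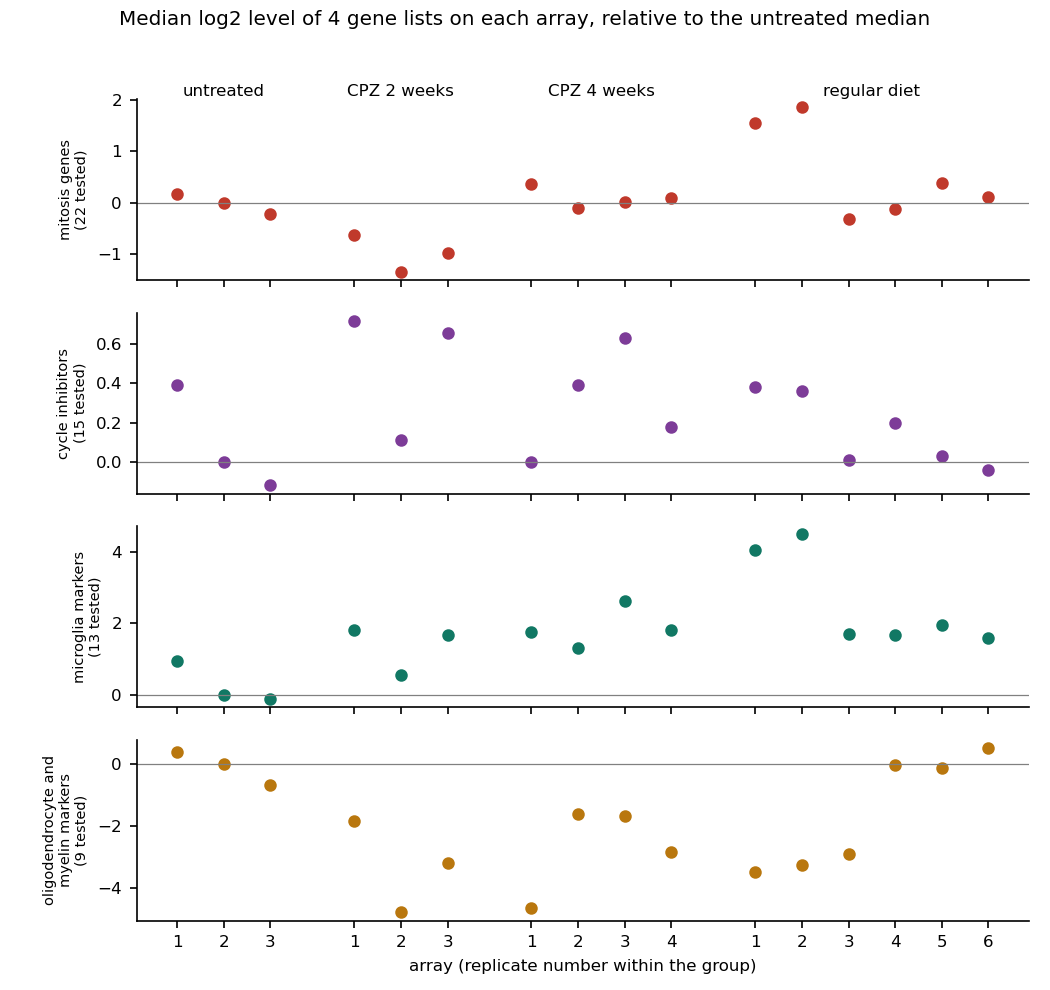
Median log2 level, relative to the untreated median, on each of the 16 arrays for the 22 tested mitosis genes, 15 cycle inhibitors, 13 microglial genes and 9 genes of myelinating oligodendrocytes. The myelin median was -1.63 or lower on all arrays at 2 and 4 weeks, the mitosis median was low at 2 weeks and between -0.10 and 0.36 at 4 weeks, and regular-diet replicates 1 and 2 had the highest mitosis and microglial medians.

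Markers of the cells in the tract moved with the mitosis genes in part. Over all genes 8.6% lay below and 8.2% above every untreated array at 2 weeks. The 9 genes of myelinating oligodendrocytes were all tested and all below every untreated array at 2 weeks, with array medians of -1.83, -4.80 and -3.21, but also between -4.65 and -1.63 at 4 weeks, when the mitosis medians were between -0.10 and 0.36. The 10 precursor genes had medians of -0.22, -1.16 and -0.33 at 2 weeks against 0.30, 0.00 and -0.39, with 3 of 10 below every untreated array, and their summed level (log2 of the summed signals, scaled to each array's 75th percentile) was 5.58 to 6.47 untreated and 4.90 to 5.97 at 2 weeks. Of the 11 genes of subventricular progenitors, which divide beside the tract, 4 lay below every untreated array, with medians of -0.04, -0.74 and -0.55 and a summed level of 2.60 to 3.45 against 2.84 to 3.61 untreated. The 13 tested microglial genes, of which 2 lay above every untreated array at 2 weeks, had medians of 0.95, 0.00 and -0.12 untreated, 1.82, 0.54 and 1.66 at 2 weeks, 1.76, 1.29, 2.63 and 1.82 at 4 weeks, and 4.05 and 4.48 on regular-diet replicates 1 and 2 against 1.58 to 1.94 on the other 4, the same arrays that had the highest mitosis medians. The summed microglial level was 5.38 to 6.51 untreated, 6.23 to 7.46 at 2 weeks, 6.90 to 8.30 at 4 weeks and 7.16 to 10.34 on regular diet, where the summed level of the 22 mitosis genes was 2.95 to 3.37, 2.23 to 2.81, 3.13 to 3.57 and 2.94 to 5.07. The 6 genes of choroid plexus and ependyma varied between arrays of every group, from -2.38 to 3.44, and stood at 1.19, -1.16 and 0.01 at 2 weeks against 1.35, -0.70 and 0.00 untreated. Of the 8 astrocyte genes 4 were above every untreated array at 2 weeks (median log2 fold change 0.49), and none of the 9 neuronal or 8 vascular genes lay above or below (medians -0.30 and -0.18). Only 2 T cell genes were bright enough to test, with 0.07 and 0.70. Under the recorded assignment the 2-week median log2 fold change was 1.22 for the myelin genes, 0.46 for the microglial genes, 0.10 for the precursor genes, 0.09 for the subventricular genes and -0.15 for the inhibitors. The part of these cells in the results was not tested.

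Across all 16 arrays the probes that followed the mitosis median most closely, of 18393 searched outside the set, were those of Nsl1 (Pearson correlation 0.968), a kinetochore protein, Chtf18 (0.966), a clamp loader subunit, Cdkn3 (0.952), a phosphatase of cyclin-dependent kinases, BC055324 (0.949) and Lockd (0.946). These correlations describe 16 arrays in 4 groups, and replicates 1 and 2 of regular diet were the highest arrays for all 5.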

How the data were processed

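RNA of the corpus callosum was hybridised to 16 single-colour Agilent arrays on 4 slides of 4 arrays (100 ng of RNA with an integrity number above 8). Per the labels the scans were read with Feature Extraction 11.0.1.1. The deposited table holds log2 values, which the authors scaled to each array's 75th percentile and set relative to each probe's median over the 3 untreated arrays. The deposited scanner files hold the signal intensity of each probe and a flag for signals well above background. Scanner and table values agreed within 0.01 for 99.8% of values. Arrays correlated at 0.897 to 0.992 within groups. Probes were named through their accessions with RefSeq (GRCm38.p6), which matched 66.7% of the 41174 probes, and a gene was represented by its brightest tested probe. Accessions that matched no gene were counted as a gene each.

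Groups were compared with limma 3.58.1 in R 4.3.3 on the table's values. The CPZ and untreated groups were fitted together (10 arrays, 27494 probes) and the regular diet comparisons on 16 arrays (27774 probes). Probes entered the test where all arrays of 1 or more groups read them well above background. Called genes had an adjusted p (Benjamini-Hochberg, over all probes tested) under 0.05 and at least a 2-fold difference. The scripts were tested on simulated data. The study's methods give 3 to 6 mice per condition, and the labels number replicates without tying arrays to mice, so p-values measure the spread between these arrays. The number of arrays limits the precision. The authors' fold changes were not used.

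The members and lists were chosen with earlier results of these data known, and counts and medians over them are descriptions. Values on each array (on regular diet mostly the range and median) were given for the 5 mitosis and 5 replication genes with the largest and the 3 with the smallest fold change at 2 and at 4 weeks, and of the other cell cycle lists the 2 genes at each end were named, most by their fold change alone. Alternatives were the scanner signal, quantile and median scaling, normexp background correction, other filters and fits, slide and replicate number as blocks, each array left out, the methods' analysis of variance, and the recorded file assignment. Normexp was run on the median signal, with an offset of 50. Array weights were added after seeing the data.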

Additional observations from a re-analysis of the deposited data

Results flagged for a closer look

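Each of the 41 members and the medians of both lists were examined for an array that stood apart within the 4-week group (4 arrays) and the regular-diet group (6 arrays). Of 86 groups of arrays 2 were flagged, where chance flags about 1 in 20. Cenpe, a kinesin of the kinetochore, stood at 0.57 on replicate 1 of the 4-week group, against 0.02 to 0.08 on the others. The other probes of Cenpe, too dim to be tested, read -0.99 and -0.72 on that array, so this value turned on the probe. Ttk, the Mps1 checkpoint kinase, stood at 2.22 on regular-diet replicate 5, against -0.67 to 0.20 on the others, and its probe was well above background on 1 of these 6 arrays. These values are log2 levels relative to the untreated median.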

How the results depend on the processing

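No member passed the test in any comparison of the report, nor under the methods' analysis of variance. Under other settings some did. At 2 weeks 1 passed without a filter on dim probes (Aurkb, too dim on all arrays of both groups, so that this call says nothing about its level), 2 with the slide as a random block (Ccna2, -1.22, and Foxm1, -1.09, among 1.26% of all genes), 8 with array weights, whose estimation stopped before it converged and under which 6.74% of all genes passed, and 0 to 1 with 1 array left out (Cenpf, -2.26, adjusted p = 0.0458, without replicate 1 of the 2-week group). For 4 weeks against 2 weeks 1 passed without the filter (Aurkb again, dim on all 2-week arrays) and 14 with array weights (10.4% of all genes). Members at an unadjusted p under 0.05 numbered 25 and 30 with array weights in these comparisons, against 36.2% and 59.6% of all genes, and 0 in both under the recorded assignment of scanner files, against 1.16% and 2.49% of all genes, where 0 were below every untreated array at 2 weeks (2.64% of all genes) and 0 above every 2-week array at 4 weeks (1.52%). Leaving out 1 array gave mitosis medians of -1.24 to -0.86 at 2 weeks, -0.02 to 0.17 at 4 weeks and 0.97 to 1.37 for 4 weeks against 2 weeks, and replication medians of -0.32 to 0.00, -0.04 to 0.23 and 0.28 to 0.53.

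The recorded assignment gave mitosis medians of 0.56 at 2 weeks, 1.05 at 4 weeks, 0.52 for 4 weeks against 2 weeks and -0.48 for regular diet against 4 weeks, and a replication median of 0.13 for 4 weeks against 2 weeks. Under it the 2-week fold changes were 1.09 for Mki67, 1.03 for Melk, 0.72 for Cenpf, 0.76 for Nusap1, 0.73 for Top2a, 0.05 for Mcm2, 0.44 for Mcm3, 0.32 for Mcm5, 0.10 for Mcm6 and 0.49 for E2f1, and Nuf2 had 0.11 at 4 weeks. Normexp gave mitosis medians of -0.53 at 2 weeks and 0.38 for 4 weeks against 2 weeks, and 4-week fold changes of -0.11 for Nusap1, -0.01 for E2f1, -0.08 for Gins2 and -0.13 for Ccne2. Array weights gave Mcm2 0.31 at 2 weeks. Leaving out 1 array moved Mcm2 between -0.62 and 0.10 at 2 weeks, and Nuf2 between -0.62 and 0.11 at 4 weeks, the highest without replicate 1 of that group. Median scaling gave a mitosis median of 1.48 for 4 weeks against 2 weeks, beside a shift of the median of all genes by 0.28, and shifted that median by -0.17 at 2 weeks, 0.12 at 4 weeks, -0.18 for regular diet against untreated and -0.30 for regular diet against 4 weeks, where the replication median was -0.08 and 1044 genes passed the test in place of 1. On the gene's own strand 38.5% of replication windows held CCAAT, against 58.3% of mitosis windows and 21.1% of all promoters. The causes were not tested.

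Replicate numbers did not pair the arrays (correlations of same-numbered arrays from -0.804 to 0.341). With the replicate block 0 members passed in all comparisons, and the mitosis and replication medians were -1.07 and -0.19 at 2 weeks, 0.11 and 0.21 at 4 weeks, 1.14 and 0.43 for 4 weeks against 2 weeks, 0.92 and 0.58 for regular diet against untreated and 0.69 and 0.34 for regular diet against 4 weeks.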
